A study of Mus musculus with 6 samples.

Results

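The bone morphogenetic protein (BMP) ligands and receptors were followed in RNA sequencing counts from mouse skull osteoblasts with and without a deletion of Cdc73. Of the 27179 gene IDs in the count table, 10 were taken by their mouse gene symbols. They are the 7 ligand genes Bmp2, Bmp3, Bmp4, Bmp5, Bmp6, Bmp7 and Bmp8a and the 3 receptor genes Bmpr1a, Bmpr1b and Bmpr2. All 10 had a row in the table and passed the filter on low counts. The 3 libraries labelled knockout (titled Flox) came from conditional knockout mice for Cdc73 (also called Hrpt2), and the other 3 libraries from wildtype mice, all of strain C57Bl/6J at an age of 5 days. In both genotypes skull bone (calvaria) was digested with collagenase and the cells were sorted for GFP, whose expression depended on Osteocalcin-Cre, a recombinase made in maturing osteoblasts. The labels do not state whether wildtype mice carried floxed alleles. They also do not tie libraries to single animals or pools, so the p-values reflect variation among these libraries, part of which may be technical.

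BMPs are secreted growth factors of the transforming growth factor beta family, named for their ability to induce bone at ectopic sites. Each dimeric ligand assembles type I and type II receptor kinases. The type II receptor phosphorylates the type I receptor, which in turn phosphorylates the signalling Smad proteins, and these enter the nucleus with Smad4. In osteoblasts the pathway acts upstream of the transcription factors Runx2 and osterix, and secreted antagonists such as noggin limit it outside the cell.

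Library totals ran from 14837272 to 16380767 counts in the knockout libraries and from 13591925 to 20993962 in the wildtype libraries. CPM here means counts scaled by library total and by the TMM factor, which centres most genes between libraries. The factor was 0.81 in knockout 3 and 0.97 to 1.09 in the other 5 libraries. No osteoblast marker was at 0 in any library. Col1a1, the main collagen of bone, measured 143517 to 214896 CPM in knockout and 168662 to 185517 CPM in wildtype libraries. Markers of chondrocytes, endothelium, macrophages, and suture and fibroblasts were also never at 0, so detection alone does not check the osteoblast label. The suture and fibroblast markers summed to 14267 to 18758 CPM in knockout and 13353 to 24180 CPM in wildtype libraries. Cdc73 itself measured 13.98, 14.73 and 14.40 CPM in knockout 1, 2 and 3, against 20.50, 12.80 and 21.73 CPM in wildtype 1, 2 and 3. Wildtype 2 lay below every knockout library for this gene, and the groups overlapped. The log2 fold change of Cdc73 was -0.36 ± 0.22 (SE, 95% interval -0.84 to 0.13, adjusted p = 0.428 in edgeR). The whole-gene count thus did not check the labels. Of 8 lists of markers of other cell types, the summed CPM of the chondrocyte, macrophage and neutrophil lists did not overlap between genotypes, and edgeR called none of their genes. Each fold change is knockout over wildtype. All 15 chondrocyte markers, all 11 endothelial markers, all 12 macrophage markers and all 9 neutrophil markers had a positive log2 fold change, with medians of 1.91, 1.27, 1.13 and 1.65. The median was 0.92 for osteoclast, 1.57 for erythroid, -0.62 for muscle, -0.047 for suture and fibroblast and -0.16 for osteoblast markers. In bulk samples such as these a change in the number of cells of a type cannot be told apart from a change in RNA per cell.

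Bmp2 was the 1 gene of the 10 whose knockout and wildtype libraries did not overlap. The gene lies at chr2:133552159-133562896 in mm10 and encodes a ligand that drives osteoblast differentiation. Bmp2 measured 47.2, 51.1 and 54.3 CPM in knockout 1, 2 and 3, against 39.6, 32.7 and 26.0 CPM in wildtype 1, 2 and 3. All 3 knockout values exceeded all 3 wildtype values, and wildtype 1 was the nearest to them. The means were 50.9 ± 3.54 CPM in knockout and 32.7 ± 6.79 CPM in wildtype (SD, n = 3 each). Its log2 fold change was 0.63 ± 0.18 (SE), or 1.55-fold with a 95% interval of 1.17 to 2.05. The difference did not pass the test over all genes (edgeR quasi-likelihood test, unadjusted p = 0.00611, Benjamini-Hochberg adjusted p = 0.273). With DESeq2 the adjusted p of Bmp2 was 0.0645, and with edgeR without wildtype 1 it was 0.0521. These were its lowest adjusted p-values among the alternatives. Leaving out any other single library gave an adjusted p of 0.345 to 0.828 in edgeR.

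Bmp2 kept its direction without the TMM factors. As CPM of the total counts without that factor, Bmp2 stood at 48.0, 49.5 and 44.1 in knockout 1, 2 and 3, against 43.1, 34.6 and 27.9 in wildtype 1, 2 and 3. The groups still did not overlap, though knockout 3 and wildtype 1 then lay close together. On the log2 scale the fold change was 0.42 with library size alone, a scaling that moved the median of all genes to -0.21. When wildtype 1 alone served as control it was 0.35 (adjusted p = 0.947 in edgeR), and from 0.48 to 0.78 when each library was left out in turn.

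**Figure D1:**
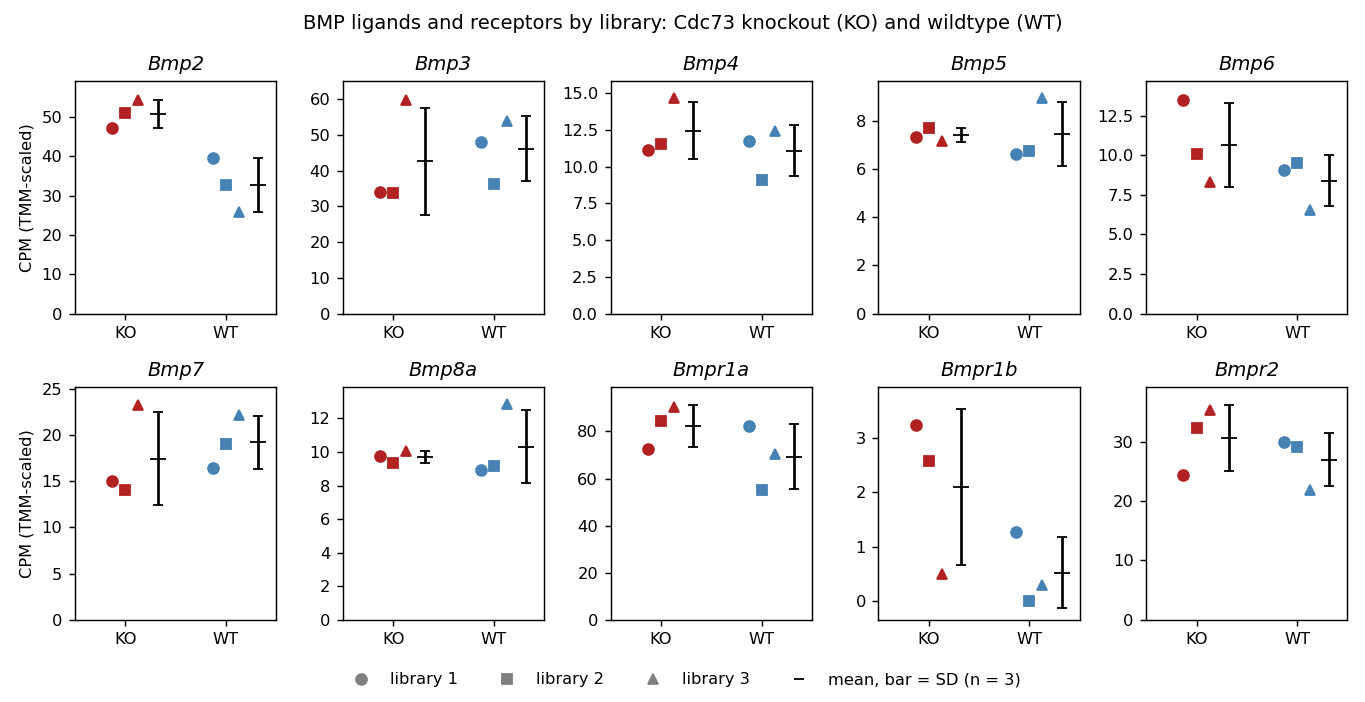
TMM-scaled CPM of the 10 genes in each library, knockout (red) left of wildtype (blue), with the mean and SD of 3 libraries in black. For Bmp2 the knockout libraries at 47.2 to 54.3 CPM all sit above the wildtype libraries at 26.0 to 39.6 CPM, while the groups overlap for the other 9 genes.

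Among all 13505 genes tested, edgeR called 0 at an adjusted p under 0.05 (0%), and 1974 had an unadjusted p under 0.05. DESeq2 called 248 (1.84%) and limma voom called 0. Other edgeR settings called 24 genes without the filter (0.121%), 409 without wildtype 1 (2.96%) and 236 with the replicate number as a block (1.75%), and none of the 10 genes was among them. None of the 10 BMP genes was called by edgeR or voom, and DESeq2 called none of the 9 to which it gave an adjusted p. At an unadjusted p under 0.05 edgeR placed 1 of the 10 higher in knockout, against 8.26% of all genes, and 0 lower, against 6.35%. Groups that did not overlap were found for 1 of the 10 genes as higher, against 10.6% of all genes, and for 0 as lower, against 9.81%. Both shares of the BMP genes were thus near those of the whole table. Of the 10, 6 had a positive log2 fold change, against 49.3% of all genes. Their median was 0.17, beside -0.0058 for all genes tested, and with library size alone it was -0.047, beside -0.21.

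Bmp2 was compared with Bmp4 within each library, since a ratio within a library does not depend on the scaling between libraries. Bmp4 (chr14:46383525-46390669) encodes the closest relative of the Bmp2 ligand. The log2 ratio of Bmp2 to Bmp4, in counts per length of exon, was 1.42, 1.48 and 1.23 in knockout 1, 2 and 3, against 1.09, 1.18 and 0.40 in wildtype 1, 2 and 3. The ratio was above 0 in all 6 libraries, and every knockout value lay above every wildtype value. The mean difference was 0.49, with a p of 0.1 in a two-sided exact permutation test, the smallest that 3 against 3 libraries allow. Wildtype 3 set much of the size, since without it the difference was 0.24.

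Bmp4 alone showed no such separation. It measured 11.1, 11.5 and 14.6 CPM in knockout 1, 2 and 3, against 11.7, 9.11 and 12.4 CPM in wildtype 1, 2 and 3. The groups overlapped, and the log2 fold change of 0.16 ± 0.20 was smaller than its SE (adjusted p = 0.697 in edgeR). With library size alone it was -0.058.

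Bmp3 ranked after Bmp2 among the ligands by mean level per length, although Bmp4 exceeded it in knockout 1 and 2, and differed more among libraries of the same genotype than between genotypes. The gene (chr5:98854415-98884053) encodes a ligand known in mice as a negative regulator of bone density. Bmp3 measured 34.1, 33.8 and 59.7 CPM in knockout 1, 2 and 3, against 48.1, 36.2 and 54.0 CPM in wildtype 1, 2 and 3. Knockout 3 was the highest of all 6 libraries, while knockout 1 and 2 were the lowest. The log2 fold change was -0.12 ± 0.25 (95% interval -0.68 to 0.44, adjusted p = 0.829 in edgeR). It was -0.46 without knockout 3 and 0.02 without knockout 2.

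Bmp7 was highest in the third library of each genotype. Bmp7 (chr2:172868012-172940321), an osteoinductive ligand, measured 15, 14.0 and 23.2 CPM in knockout 1, 2 and 3, against 16.4, 19.0 and 22.2 CPM in wildtype 1, 2 and 3. Knockout 3 and wildtype 3 were the highest of their groups, as they were for Bmp3. Of all 10 genes, 7 had their highest knockout level in knockout 3 and 5 their highest wildtype level in wildtype 3. Without the TMM factor only Bmp3, Bmp4 and Bmp7 were highest in knockout 3 among the knockout libraries. The TMM-scaled sum over all genes tested was also highest in knockout 3, at 1229706 CPM, against 981414 and 1029896 CPM in knockout 1 and 2. The share of all genes with such a peak was not counted. The 11 osteoblast markers summed to 241976, 237345 and 351063 CPM in knockout 1, 2 and 3, against 281454, 304117 and 307080 CPM in wildtype 1, 2 and 3, and their part in these values was not tested. The log2 fold change of Bmp7 was -0.14 ± 0.23 (adjusted p = 0.762 in edgeR). Without knockout 3 it was -0.42.

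Bmp6, Bmp5 and Bmp8a stood at the low end of the ligands. Bmp6 (chr13:38345716-38500314), which is osteoinductive and is also the endothelial signal for hepcidin in liver, measured 13.5, 10.1 and 8.31 CPM in knockout 1, 2 and 3, against 9.09, 9.53 and 6.57 CPM in wildtype 1, 2 and 3. Only knockout 1 and 2 lay above all wildtype libraries. Its log2 fold change was 0.34 ± 0.24 (adjusted p = 0.484 in edgeR), and 0.12 without knockout 1. Exons of Bmp6 share 224 bases with exons of Txndc5 on the opposite strand. Txndc5 had 4862 to 6430 counts in knockout and 7074 to 8632 counts in wildtype libraries, against 101 to 225 and 110 to 208 counts for Bmp6. The strand used in counting is not given, so reads of the abundant neighbour in this stretch cannot be told apart from those of Bmp6.

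Bmp5 was the ligand with the smallest difference between genotypes. The gene (chr9:75775365-75900316) is the one disrupted in the short ear mouse. Bmp5 measured 7.32, 7.71 and 7.16 CPM in knockout 1, 2 and 3, against 6.60, 6.75 and 8.96 CPM in wildtype 1, 2 and 3. The knockout libraries lay within 1 CPM of each other and inside the wildtype range. On the log2 scale the fold change was -0.0061 ± 0.21, with a 95% interval of -0.49 to 0.48, or 0.713-fold to 1.39-fold (adjusted p = 0.992 in edgeR). In the GENCODE annotation, 46.0% of the 50-base stretches of Bmp5 transcripts also stand in another gene on either strand, most often Gm26903. This antisense gene shares 1878 exon bases with Bmp5 and has no row under that name in the counts.

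Bmp8a, a ligand best known from the male germ line, measured 9.78, 9.31 and 10.04 CPM in knockout 1, 2 and 3, against 8.92, 9.18 and 12.8 CPM in wildtype 1, 2 and 3. Apart from wildtype 3, all libraries lay between 8.92 and 10.04 CPM. The log2 fold change was -0.09 ± 0.21 (adjusted p = 0.851 in edgeR) and 0.09 without wildtype 3. Bmp8a (chr4:123312645-123343252) has a close copy, Bmp8b, which received 2 to 9 counts in the knockout libraries and 0 to 5 in the wildtype libraries. Of the 50-base stretches of Bmp8a transcripts, 8.74% also occur in Bmp8b or Gm17244. The longest run shared by both genes has 182 bases and is shown because reads inside it cannot be assigned to either gene. It is coding sequence that spans the junction of exon 2 and exon 3 of 7, on the minus strand between the outer positions chr4:123324593-123325163 of GRCm38, with the intron left out.
Bmp8a and Bmp8b shared run: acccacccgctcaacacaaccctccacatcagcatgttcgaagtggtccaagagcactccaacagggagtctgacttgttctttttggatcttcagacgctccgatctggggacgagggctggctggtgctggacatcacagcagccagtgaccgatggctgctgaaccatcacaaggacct

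The type I receptor Bmpr1a was the most abundant of the 3 receptors per length of exon in every library. Bmpr1a (chr14:34411061-34503336) encodes a receptor kinase for Bmp2 and Bmp4. It measured 72.7, 84.4 and 90.2 CPM in knockout 1, 2 and 3, against 82.5, 55.0 and 70.2 CPM in wildtype 1, 2 and 3. Wildtype 1 lay inside the knockout range, while wildtype 2 and 3 lay below it. Its log2 fold change was 0.25 ± 0.18 (adjusted p = 0.495 in edgeR), 0.09 without wildtype 2 and -0.011 when wildtype 1 alone served as control.

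The other type I receptor, Bmpr1b (chr3:141837135-142169585), which in mouse is needed for digit cartilage, was low and variable. It was close to the limit of detection in knockout 3, wildtype 2 and wildtype 3. It had 54, 37 and 6 counts in knockout 1, 2 and 3, against 29, 0 and 5 counts in wildtype 1, 2 and 3. In CPM these were 3.24, 2.57 and 0.49 in knockout, against 1.27, 0 and 0.30 in wildtype libraries. The 0 counts of wildtype 2 allow a level of up to 0.209 CPM, taken at 3 counts. Knockout 3 lay below wildtype 1, so the groups overlapped. The fitted log2 fold change was 1.92 ± 0.99 (95% interval -0.31 to 4.14, adjusted p = 0.378 in edgeR). It moved to 3.66 without wildtype 1, to 1.37 without wildtype 2 and to 0.74 against wildtype 1 alone.

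The balance of the type I receptors within each library was also uneven. The log2 ratio of Bmpr1b to Bmpr1a per length, with a prior count of 0.5, was -4.38, -4.93 and -7.31 in knockout 1, 2 and 3, against -5.91, -10.5 and -7.65 in wildtype 1, 2 and 3. Bmpr1a was thus the main type I receptor of this pair in all 6 libraries. The difference of 2.49 did not separate the groups (two-sided exact permutation test, p = 0.2, where 0.1 is the smallest possible), and without wildtype 2, whose value rests on the prior count, it was 1.24.

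Bmpr2 (chr1:59764279-59878081), the type II receptor, measured 24.4, 32.2 and 35.3 CPM in knockout 1, 2 and 3, against 29.9, 29.1 and 21.9 CPM in wildtype 1, 2 and 3. Knockout 1 lay below wildtype 1 and 2, so the groups overlapped. On the log2 scale the fold change was 0.18 ± 0.20 (adjusted p = 0.638 in edgeR) and -0.036 with library size alone.

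**Figure D2:**
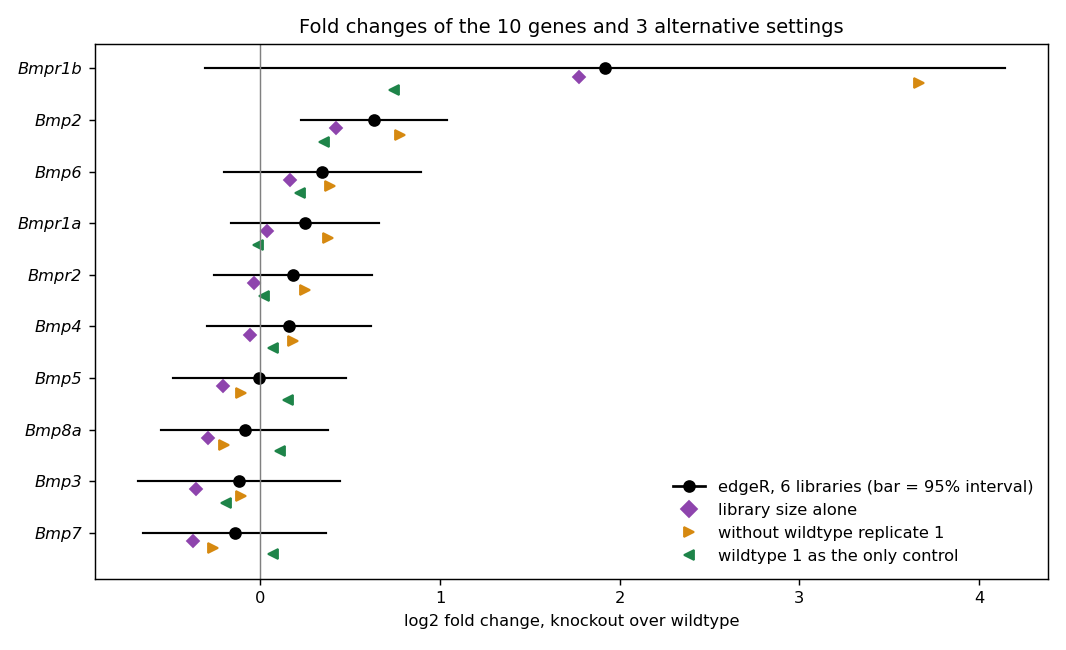
Log2 fold change of knockout over wildtype for each gene in edgeR with all 6 libraries (black, bar for the 95% interval) and under 3 other settings. Bmp2 is the gene whose interval stays above 0 (1.17-fold to 2.05-fold), and the Bmpr1b interval is the widest, from -0.31 to 4.14.

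Levels of different genes were compared per length, as RPKM, the TMM-scaled CPM divided by the kilobases of annotated exon. Bmpr1a averaged 11.9 RPKM and Bmp2 11.8 RPKM over the 6 libraries, and Bmp2 was the higher of the pair in 4 of 6. Bmp2 exceeded the next gene, Bmp3, in 6 of 6 libraries. Bmp3, Bmp4, Bmp7 and Bmp8a followed at 5.99, 5.23, 4.55 and 4.16 RPKM, and each neighbouring pair of these had overlapping ranges. Bmp8a lay above Bmp6 (2.44 RPKM) in 6 of 6 libraries with no overlap. Bmp6, Bmp5 (1.84 RPKM) and Bmpr2 (1.60 RPKM) again overlapped from neighbour to neighbour. Bmpr1b was last, at 0.22 RPKM, below Bmpr2 in 6 of 6 libraries. The annotated exons of Bmpr2 sum to 17983 bases, and with the longest transcript in their place Bmpr2 moved above Bmp5.

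The share of Bmp2 among the ligands was higher in every knockout library than in every wildtype library. It rests on the same Bmp2 counts as above, and the shares were not tested. Summed over the 7 ligands the level was 35.9, 35.9 and 43.7 RPKM in knockout 1, 2 and 3, against 34.6, 30.8 and 34.9 RPKM in wildtype 1, 2 and 3. Bmp2 took 37.0%, 40.0% and 34.9% of that sum in knockout 1, 2 and 3, against 32.2%, 29.9% and 20.9% in wildtype 1, 2 and 3. It was the largest single ligand in all 6 libraries, although in wildtype 3 Bmp3 took 20.9% as well. The share of Bmp4 averaged 14.3 ± 0.575% in knockout and 14.7 ± 1.38% in wildtype (SD, n = 3 each).

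**Figure D3:**
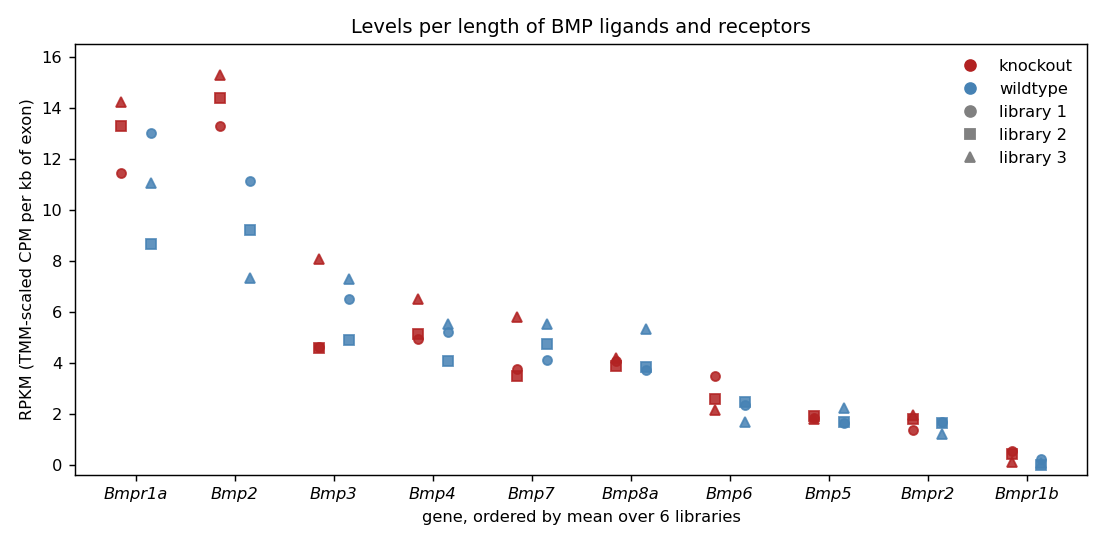
RPKM of each gene in each library, knockout (red) left of wildtype (blue), ordered by the mean over 6 libraries. Bmpr1a and Bmp2 lead at means of 11.9 and 11.8 RPKM, and Bmpr1b is lowest at 0.22 RPKM.

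Markers of other cell types were set beside Bmp2 and Bmpr1b, the genes with the largest positive fold changes. The chondrocyte list, which includes Col2a1 and Acan, summed to 30349, 18870 and 15836 CPM in knockout 1, 2 and 3, against 12708, 5850 and 4886 CPM in wildtype 1, 2 and 3. Endothelial markers summed to 136 to 240 CPM in knockout and 53.2 to 139 CPM in wildtype libraries, and macrophage markers to 167 to 392 CPM and 98.9 to 143 CPM. Neutrophil markers summed to 58.4 to 196 CPM in knockout and 20.6 to 57.1 CPM in wildtype libraries. In these 4 lists a marker at 0 was seen only for the neutrophil gene Elane, in 1 library. Among the knockout libraries the sums of these lists were highest in knockout 1 and lowest in knockout 3. Bmp2 had the opposite order there, with 47.2 CPM in knockout 1 and 54.3 CPM in knockout 3. That order depended on the TMM factor. Without it Bmp2 stood at 48.0, 49.5 and 44.1 in knockout 1, 2 and 3, lowest in knockout 3. In the wildtype libraries Bmp2 and the chondrocyte and endothelial sums were all highest in wildtype 1 and lowest in wildtype 3. Bmpr1b and Bmp6 had the same order as the marker lists among the knockout libraries. The part of these cells in the Bmp2, Bmp6 and Bmpr1b values was not tested.

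**Figure D4:**
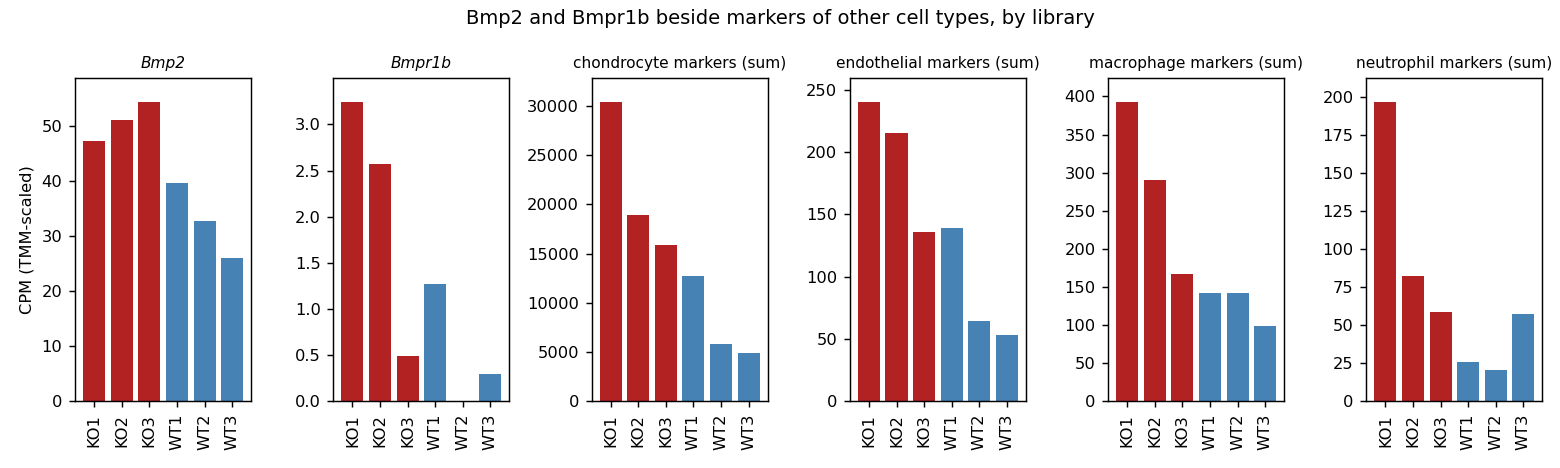
CPM of Bmp2 and Bmpr1b and summed CPM of 4 marker lists by library, knockout (KO, red) left of wildtype (WT, blue). From knockout 1 to knockout 3 the chondrocyte sum is 30349, 18870 and 15836 CPM while Bmp2 is 47.2, 51.1 and 54.3 CPM. Without the TMM factor Bmp2 is 48.0, 49.5 and 44.1 in the same libraries.

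The rest of the pathway was read from 7 lists with 61 genes, of which 48 passed the filter on low counts. None was called by edgeR over all genes. At an unadjusted p under 0.05, 6 of the 48 were higher in knockout and 1 lower, against 8.26% and 6.35% of all genes. The median log2 fold change of the 48 was 0.16, and -0.030 with library size alone.

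Among the antagonists, which bind BMPs outside the cell, 9 of 12 tested genes had a positive fold change (7 with library size alone). Crim1, a membrane protein that binds BMPs, measured 45.5, 40.0 and 31.8 CPM in knockout 1, 2 and 3, against 29.1, 15.3 and 8.18 CPM in wildtype 1, 2 and 3 (log2 fold change 1.15 ± 0.38, adjusted p = 0.288 in edgeR). Like the chondrocyte and endothelial sums, Crim1 was highest in knockout 1 and in wildtype 1 within its groups, and the part of those cells in its values was not tested. Twsg1, which forms complexes with chordin and BMPs, averaged 70.0 ± 1.03 CPM in knockout and 52.5 ± 6.37 CPM in wildtype (SD, n = 3 each), and its groups did not overlap (0.42 ± 0.15, adjusted p = 0.302 in edgeR).

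Among 5 other receptors tested, 4 had a positive fold change (3 with library size alone), as did 4 of 5 co-receptors (3 with library size alone). Acvr1, a further type I receptor for BMPs, averaged 49.0 ± 2.72 CPM in knockout and 40.8 ± 12.5 CPM in wildtype (0.26 ± 0.22). Acvr2a, a type II receptor shared with activins, averaged 12.8 ± 1.59 CPM in knockout and 9.01 ± 2.58 CPM in wildtype (0.50 ± 0.24). The activin receptor Acvr1b had groups that did not overlap, at 5.27 to 6.96 CPM in knockout and 2.93 to 5.07 CPM in wildtype libraries (0.51 ± 0.29). The co-receptors Rgma (0.96 ± 0.47), Rgmb (0.76 ± 0.34) and Tgfbr3 (0.21 ± 0.18) overlapped between groups. The adjusted p of these 6 genes ran from 0.342 to 0.556 in edgeR.

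The Smads had fold changes of both signs. Of 6 Smad genes 4 had a negative fold change (5 with library size alone), beside 6843 of all 13505 genes tested. None lacked overlap, against 10.6% of all genes as higher and 9.81% as lower. The signalling gene Smad1 averaged 23.2 ± 0.429 CPM in knockout and 27.7 ± 4.74 CPM in wildtype (-0.26 ± 0.17). The inhibitory Smads, which are induced by the pathway and restrain it, differed in sign, with Smad6 at 49.6 ± 7.26 CPM in knockout and 62.3 ± 11.2 CPM in wildtype (-0.33 ± 0.18) and Smad7 at 54.1 ± 11.5 CPM in knockout and 38.6 ± 7.39 CPM in wildtype (0.49 ± 0.21). The adjusted p of these 3 genes ran from 0.327 to 0.462 in edgeR.

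Genes known as BMP targets, among them osteoblast transcription factors, were mixed in sign. Of 12 tested, 5 had a positive and 7 a negative fold change, and the median was -0.067 (3 positive and a median of -0.27 with library size alone). Groups did not overlap for 1 of the 12 as higher, against 10.6% of all genes, and for 2 as lower, against 9.81%. Sp7, which encodes osterix, measured 127, 131 and 182 CPM in knockout 1, 2 and 3, against 208, 222 and 244 CPM in wildtype 1, 2 and 3, so that the groups did not overlap (-0.62 ± 0.19, adjusted p = 0.277 in edgeR). The homeobox gene Dlx5 did not overlap either, at 24.3 to 28.4 CPM in knockout and 29.2 to 34.3 CPM in wildtype libraries (-0.34 ± 0.16, adjusted p = 0.349 in edgeR). Id4 had the opposite sign, at 12.1 ± 2.31 CPM in knockout and 8.02 ± 2.57 CPM in wildtype (0.58 ± 0.27, adjusted p = 0.349 in edgeR). The gene without overlap as higher was Id2, at 116 ± 6.52 CPM in knockout and 103 ± 4.47 CPM in wildtype (0.18 ± 0.14, adjusted p = 0.529 in edgeR). Id1 (0.32 ± 0.21) and Id3 (-0.014 ± 0.17) overlapped between groups. Sp7 is also on the osteoblast marker list, and the part of osteoblast content in its values was not tested.

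Enzymes that cleave BMP precursors included Pcsk5, a proprotein convertase with 82.3, 79.8 and 74.8 CPM in knockout 1, 2 and 3, against 60.2, 38.8 and 56.4 CPM in wildtype 1, 2 and 3. The groups did not overlap, and the log2 fold change was 0.61 ± 0.19 (adjusted p = 0.277 in edgeR). Furin, the best known of these convertases, measured 133 to 139 CPM in knockout and 96.5 to 126 CPM in wildtype libraries (0.24 ± 0.16, adjusted p = 0.460 in edgeR). Tll1, on the same list but not a convertase, is a relative of the procollagen protease Bmp1. Its level was 3.56 ± 1.18 CPM in knockout and 2.49 ± 1.33 CPM in wildtype (0.51 ± 0.49).

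**Figure D5:**
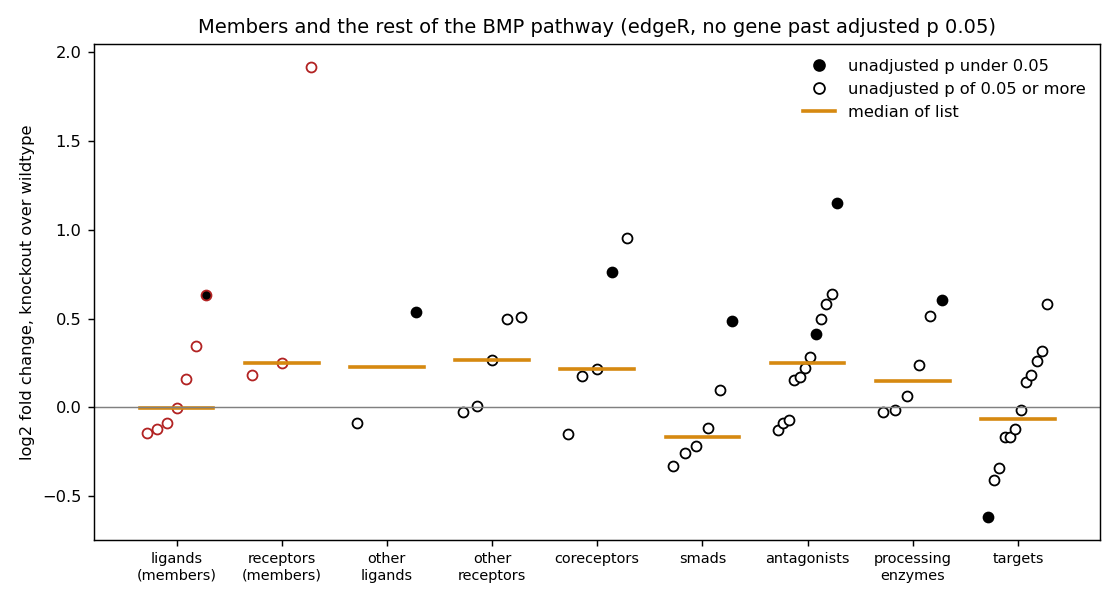
Log2 fold change of knockout over wildtype for the 10 ligand and receptor genes (red outline) and 48 further pathway genes by role, with filled points for an unadjusted p under 0.05 and orange lines for list medians. Bmp2 at 0.63 is the filled point among the 10 genes, and Sp7 at -0.62 is the filled point below 0.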

How the data were processed

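RNA was sequenced from GFP-sorted calvarial osteoblasts, 3 libraries labelled knockout and 3 labelled wildtype. The deposited values were raw read counts per gene, whole numbers without normalization, for 27179 gene IDs. The submitters' processing notes name CASAVA (version 1.7), Subread, featureCounts and the mm10 build. The sources used here give no annotation, read length or strand setting. All columns were assigned by name to a sample, and 0 were left over. RefSeq (GRCm38.p6) named 25275 IDs and GENCODE release M21 a further 18. Exon lengths, overlaps and transcript sequences came from GENCODE.

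Counts were filtered with filterByExpr, scaled by TMM and tested over all genes with edgeR 4.0.16 (R 4.3.3) by the two-sided quasi-likelihood test with Benjamini-Hochberg adjustment at 0.05, after tests on simulated data. No pair of libraries agreed within sampling noise (chi-square per degree of freedom 18.3 to 139). Library totals are in the report, and the 3-count floor covers counting error only. Alternatives were other scalings and filters, DESeq2 1.42.0, limma 3.58.1 voom, the replicate number as a block, each library left out, and wildtype 1 as the only control. Per-length ratios were compared by exact permutation. Log2 CPM used a prior count of 2.

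The 10 genes, the pathway and marker lists and the rule for named genes were chosen with earlier results of these data known. The rule took the 10 genes, Cdc73, up to 3 tested genes of smallest p in each pathway list, 8 defining markers, and for each of the 10 genes that averaged 5 CPM or more the 2 genes of most similar profile. Bmp8b, Txndc5, Gm26903, Gm17244, Elane, Bmp1, Pcsk6, Gdf5, Bmp10, Gdf1, Gdf3, Id1, Id2 and Id3 were named after their values were seen. Of the genes this rule names, 2 are not reported here.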

Additional observations from a re-analysis of the deposited data

How the results depend on the processing

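No BMP ligand or receptor was called under any alternative run. Over all genes edgeR called 0, against 24 without the filter on low counts, 248 with DESeq2, 236 with the replicate number as a block, and 0 to 409 when each library was left out, the 409 being without wildtype 1. Whether the replicate numbers pair the libraries is not known. Same-numbered libraries deviated together at r = -0.074 to 0.222 and differently numbered ones at r = -0.354 to 0.347, a range too wide to decide it. The block, under which Bmp2 had a log2 fold change of 0.65 (adjusted p = 0.155 in edgeR), is given as a check only. Of 150 alternative values of the 10 fold changes, 135 kept their sign. Bmp2, Bmp6 and Bmpr1b kept it in all 15 alternatives each. Bmp5, at -0.0061, turned to 0.0012 with DESeq2's size factors, 0.0016 with DESeq2, 0.016 with voom and 0.0072 with the replicate block. With library size alone Bmp4 was -0.058 and Bmpr2 -0.036. With wildtype 1 as the only control, assumed to vary like the knockout libraries, Bmpr1a was -0.011, Bmp7 0.069, Bmp8a 0.11 and Bmp5 0.15. Leaving out each library gave -0.46 to 0.024 for Bmp3, -0.20 to 0.091 for Bmp8a and -0.11 to 0.14 for Bmp5. Differences in the per-length ratios stayed positive, at 0.24 to 0.63 for Bmp2 to Bmp4 and 1.24 to 3.55 for Bmpr1b to Bmpr1a when each library was left out, and at 0.49 and 2.49 within pairs of the same number (replicate block, exact sign-flip p = 0.25, the smallest that 3 pairs allow). The cause of these shifts was not tested. Depth limits Bmpr1b, which rests on 0 to 54 counts a library.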

Other observations

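Ligands of the wider family were mostly near the limit of detection. Of 11 further ligand genes only Gdf10 and Gdf11 passed the filter on low counts. Gdf10, a relative of Bmp3, measured 63.9, 70.4 and 49.0 CPM in knockout 1, 2 and 3, against 51.2, 40.4 and 34.5 CPM in wildtype 1, 2 and 3. Knockout 3 lay below wildtype 1, and the log2 fold change was 0.54 ± 0.20 (adjusted p = 0.302 in edgeR). Gdf11 averaged 5.08 ± 0.370 CPM in knockout and 5.44 ± 2.16 CPM in wildtype (SD, n = 3 each). Gdf5, a ligand of joints and cartilage, had 24, 9 and 23 counts in knockout 1, 2 and 3, against 12, 0 and 9 counts in wildtype 1, 2 and 3. Gdf3 had 5, 1 and 1 counts in the knockout libraries and 0 in each wildtype library. Bmp10 and Gdf1 had 0 counts in all 6 libraries.

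Proteases of the pathway were measured with many counts. Bmp1, which is no BMP ligand but a procollagen and chordin protease, averaged 718 CPM in knockout and 688 CPM in wildtype, and the convertase Pcsk6 averaged 397 CPM in knockout and 402 CPM in wildtype.

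Genes with the most similar profile over the 6 libraries were ranked by the root mean square difference of centred log2 CPM. For Bmp2, whose own spread was 0.375 on that scale, they were Atrn (0.057) and Arid4b (0.073). Atrn averaged 50.8 ± 6.95 CPM in knockout and 32.3 ± 6.71 CPM in wildtype (SD, n = 3 each). For Bmp3 they were Cadm1 (0.063) and Aldh1l2 (0.080), and for Bmp7 they were Rgs3 (0.062) and Galnt5 (0.069). Sema5a (0.046) was among those of Bmp4. Bmp5 was nearest to Sugt1 (0.047) and Ube2j2 (0.050), Bmp6 to Cpne2 (0.055) and Zswim4 (0.079), and Bmp8a to Cse1l (0.030) and Sec11a (0.038). Among the receptors, Bmpr1a was nearest to Tnfrsf23 (0.028) and Ube3a (0.030), and Bmpr2 to Scaf11 (0.047) and Mbd6 (0.052). The median difference from all other genes was 0.442 for Bmp2 and 0.283 for Bmp5. All genes of a library share its depth and scaling factor, so these neighbours are a description of these 6 libraries.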
